A study of Mus musculus with 11 samples.

Results

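The 9 genes described here handle or sense the inhibitory transmitter GABA, and they were chosen by name from the 24421 genes listed in each sample. They are the plasma membrane transporters Slc6a11 and Slc6a13, the synthetic enzymes Gad1 and Gad2, the enzymes Abat, Aldh5a1 and Maob of GABA metabolism, and the GABA-B receptor subunits Gabbr1 and Gabbr2. All 9 passed the filter on low counts that left 13875 genes for testing. RNA was sequenced from Aldh1l1-eGFP positive astrocytes sorted by flow cytometry from the olfactory bulb (OB, 3 samples), hippocampus (HC, 3 samples), cortex (CX, 2 samples) and brainstem (BS, 3 samples) of C57BL/6 mice aged 16 weeks. Every sample carried the same reporter, in which regulatory sequence of the astrocyte gene Aldh1l1 drives eGFP, and the labels name no treatment. The labels do not say whether samples of a region came from separate animals or from pools, so p-values measure the spread between samples, which may be technical.

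Astrocytes take up much of the GABA that synapses release. Slc6a11 encodes the transporter GAT3, which is found chiefly on astrocytes. Inside the cell, GABA transaminase (Abat) and succinate semialdehyde dehydrogenase (Aldh5a1) pass the carbon of GABA into the tricarboxylic acid cycle. Astrocytes can also make GABA, either with glutamate decarboxylase or from putrescine by a route that uses monoamine oxidase B (Maob). The GABA-B receptor is a heterodimer of Gabbr1 and Gabbr2 that signals through inhibitory G proteins.

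Each value is a read count divided by a single size factor per sample, and 2830746 to 14151670 reads were counted on genes per sample. Depending on the sample, 1 read was worth a value of 0.367 to 2.10. Because values are not divided by gene length, levels of different genes are compared only per kilobase of annotated exon. The geometric mean of 10 astrocyte markers lay between 4773 and 8006 in 10 samples and was 3334 in BS sample 1, which also had the highest summed value of 8 choroid plexus markers, 240125. That sum was 51202 to 118302 in the other BS samples, 70362 to 143026 in HC, 1743 to 4872 in CX and 201 to 326 in OB. In such bulk samples, fewer cells of a type and less RNA per cell cannot be told apart.

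Levels differed widely among the 9 genes. Averaged over the 11 samples, Slc6a11 had the highest value per kilobase, 2722, followed by Abat at 693, Gabbr1 at 347, Aldh5a1 at 288, Maob at 277 and Gabbr2 at 103. Gad2 at 31.2, Gad1 at 17.0 and Slc6a13 at 6.08 were the lowest. To ask which of these genes differed among the 4 regions, an F test across the regions was made in limma on log2(value + 1), with p-values adjusted by Benjamini and Hochberg over all tested genes. It was passed at an adjusted p under 0.05 by 6 of the 9, namely Slc6a11, Gad1, Gad2, Maob, Gabbr1 and Gabbr2, beside 16.5% of all genes tested. Each region was also set against the samples of the other 3, and genes with an unadjusted p under 0.01, a difference of more than 1.5-fold and values above 5 in no fewer than 2 samples from a region were called. Those comparisons share samples and are given side by side.

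**Figure D1:**
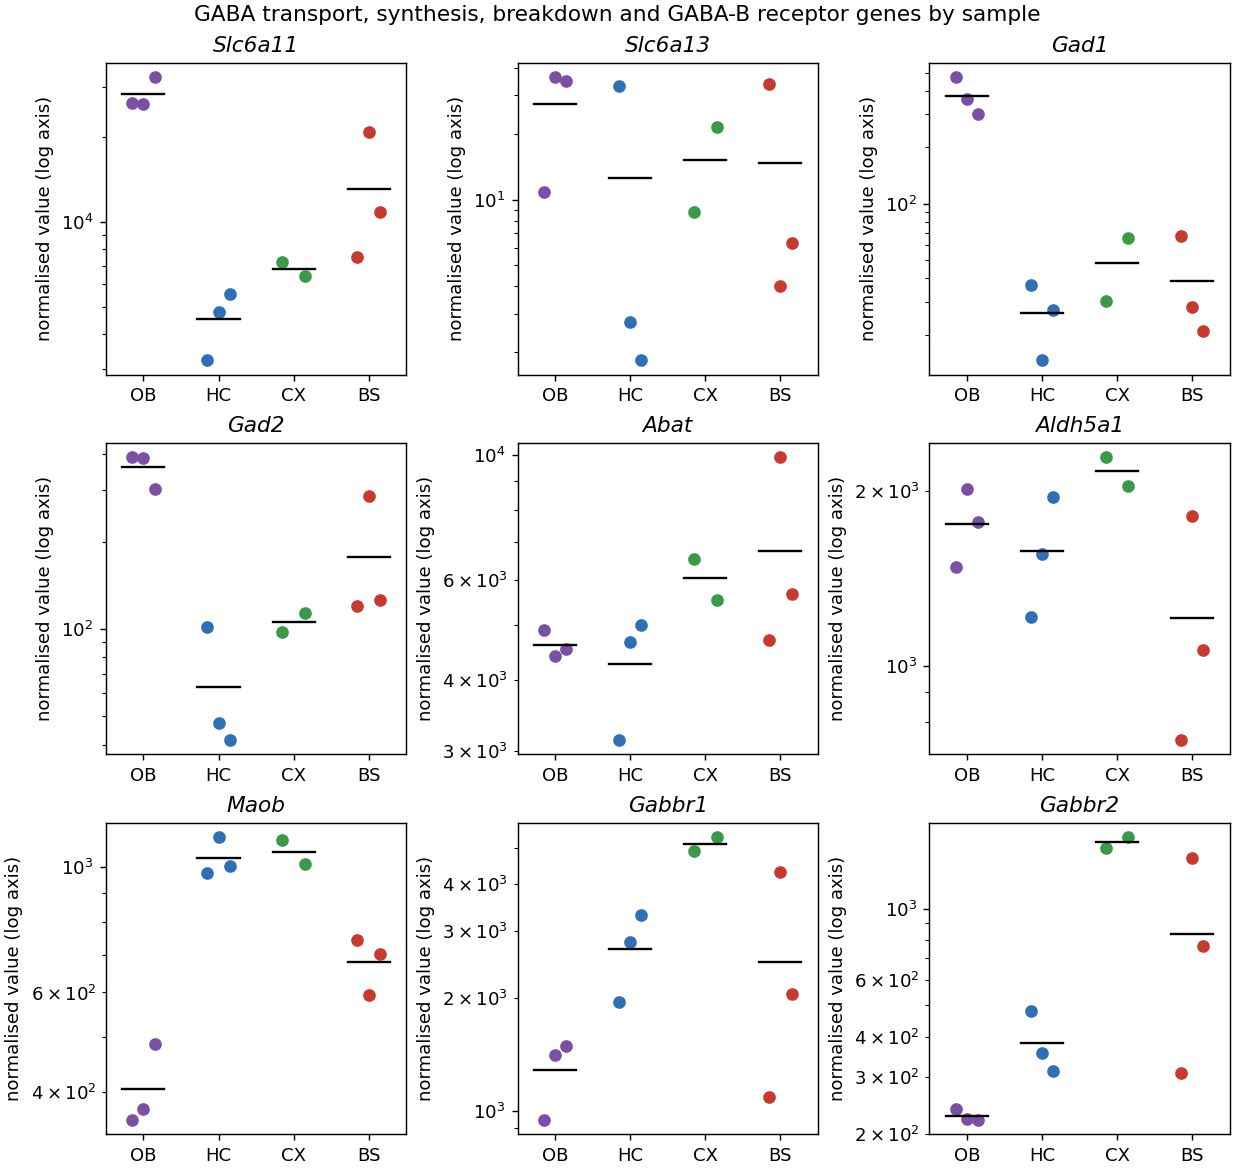
Normalised value of each of the 9 genes in every sample (vertical axis, logarithmic) by region (horizontal axis), with points for samples and a line at the region mean. OB samples lie above all others for Slc6a11, Gad1 and Gad2 and below all others for Maob and Gabbr2, and both CX samples lie above all others for Gabbr1 and Gabbr2.

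The sequence upstream of the start is shown for the 5 genes that differed between regions in transport, synthesis or receptor function and have an entry in RefSeq. Maob and Abat are not shown. Each sequence is the part of the 250 bases before the RefSeq start of transcription that holds no annotated exon (GRCm38.p6, written 5′ to 3′ on the strand of the gene). Capitals mark matches on either strand to TTGGC, an NFI half-site, AAGTG, an Nkx2-2 core, and GGGAGGG, a Maz core, since the study examined motifs of these factors. The Slc6a11 window is chr6:114130991-114131240 (plus), that of Gad1 chr2:70561879-70562041 (plus), that of Gad2 chr2:22622077-22622204 (plus), that of Gabbr1 chr17:37045716-37045965 (plus) and that of Gabbr2 chr4:46991874-46991964 (minus).
Slc6a11: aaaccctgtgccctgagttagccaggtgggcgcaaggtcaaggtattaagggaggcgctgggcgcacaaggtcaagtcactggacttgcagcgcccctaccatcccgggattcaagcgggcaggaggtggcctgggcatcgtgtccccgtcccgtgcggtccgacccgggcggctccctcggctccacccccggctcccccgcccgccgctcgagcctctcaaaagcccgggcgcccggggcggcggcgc
Gad1: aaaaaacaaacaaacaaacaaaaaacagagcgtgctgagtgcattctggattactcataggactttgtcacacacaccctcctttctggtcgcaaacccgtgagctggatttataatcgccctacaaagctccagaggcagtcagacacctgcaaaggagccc
Gad2: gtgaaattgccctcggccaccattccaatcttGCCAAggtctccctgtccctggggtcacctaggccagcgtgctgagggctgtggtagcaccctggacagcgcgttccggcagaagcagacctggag
Gabbr1: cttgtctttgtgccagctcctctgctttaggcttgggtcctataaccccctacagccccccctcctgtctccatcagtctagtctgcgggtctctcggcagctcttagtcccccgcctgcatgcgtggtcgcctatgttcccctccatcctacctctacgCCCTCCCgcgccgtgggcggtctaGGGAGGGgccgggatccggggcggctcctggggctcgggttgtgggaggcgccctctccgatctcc
Gabbr2: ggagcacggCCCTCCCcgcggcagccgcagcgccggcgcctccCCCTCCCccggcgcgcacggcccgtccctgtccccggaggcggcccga
These letters occurred in neither the Slc6a11 nor the Gad1 window. Gad2 held 1 NFI half-site in 128 bases, found in 22.3% of 32851 RefSeq promoters cut to that length. Both receptor genes held 2 Maz cores, in 250 bases for Gabbr1, where 19.7% of promoters had at least 1, and in 91 bases for Gabbr2, where 5.84% had. The Gabbr2 window was 85.7% G and C and that of Gad1 46.6%. The Gad1 window lies inside the annotated gene (chr2:70553072-70602014), before an internal RefSeq start, and does not describe the bases before the gene. A match is a description of letters and not a site of binding.

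Slc6a11 was highest in OB and lowest in HC. The gene lies on the plus strand of chromosome 6 (GRCm38 chr6:114131241-114249952). Its values were 26319, 26056 and 32499 in OB and 7477, 20819 and 10848 in BS. They were 7206 and 6412 in CX and 3232, 4786 and 5561 in HC. Every OB sample was thus above every other sample and every HC sample below every other sample, and the BS samples were widely spread. The OB mean of 28291 ± 3646 (SD, n = 3) stood against 8293 ± 5532 (SD, n = 8) elsewhere, giving a log2 fold difference of 1.98 (SE 0.43, 95% confidence interval 1.06 to 2.90, limma adjusted p = 0.01625). The HC mean of 4526 ± 1186 (SD, n = 3) stood against 17205 ± 10419 (SD, n = 8), with a log2 fold difference of -1.69 (SE 0.52). Its limma p was 0.005881 before and 0.6668 after adjustment. This HC call was lost when OB sample 1, OB sample 2, any of the HC samples or BS sample 2 was left out, with the limma p reaching 0.0349 without HC sample 1.

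Between pairs of regions, Slc6a11 was higher in OB than in HC by 2.67 on the log2 scale (SE 0.32, limma adjusted p = 8.711e-05), than in CX by 2.05 (SE 0.36, adjusted p = 0.003392) and than in BS by 1.24 (SE 0.32, adjusted p = 0.01629). HC was below BS by a log2 difference of -1.43 (SE 0.32, adjusted p = 0.01666). The neighbours BS and CX (adjusted p = 0.1793) and CX and HC (adjusted p = 0.5243) did not differ beyond their spread. Without BS sample 1 OB exceeded BS by 0.91 with an adjusted p of 0.0585, and this pair was also past 0.05 without OB sample 3 (0.0706) or BS sample 3 (0.0662). The OB against CX difference had an adjusted p of 0.0548 without CX sample 2, and the HC against BS difference one of 0.0613 without HC sample 1 and 0.054 without HC sample 2.

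Slc6a13, the transporter GAT2 (GRCm38 chr6:121300227-121337733, plus strand), was near the limit of detection. Its values were 10.9, 36.3 and 35.0 in OB, 33.1, 2.74 and 1.83 in HC, 8.79 and 21.5 in CX and 33.6, 4.01 and 6.31 in BS, from 2 to 65 reads. The regions overlapped, and the F test gave an adjusted p of 0.557. HC sample 1 and BS sample 1, the highest of their regions, were also the highest of their regions in the summed value of 9 leptomeningeal fibroblast markers, cells known to express Slc6a13. That sum was 4112 in HC sample 1 against 2122 and 2507 in the other HC samples, and 9176 in BS sample 1 against 1913 and 3321. It was 2121 to 2481 in OB and 588 to 725 in CX, and no marker of the list was at 0 throughout a region. Different genes carried the sum, with Islr at a mean of 1586 in OB and Igf2 at 2472 in HC and 3316 in BS. Islr averaged 57.7 in HC and 118 in BS, and Igf2 227 in OB, so the sum does not compare these cells between regions. HC sample 1 and BS sample 1 were also the highest of their regions in the summed choroid plexus markers. That choroid plexus sum was 143026 against 70362 and 134527 in HC, and 240125 against 51202 and 118302 in BS. The part of either sum in the Slc6a13 values was not tested. Slc6a12, a betaine and GABA transporter gene 5.343 kb away, had no reads in 2 HC samples and at most 25 in any sample. The log2 ratio of Slc6a13 to Slc6a12, taken on value + 1, was 3.38 ± 0.76 (SD, n = 3) in OB, 1.48 ± 0.43 (SD, n = 3) in HC, -0.13 ± 0.056 (SD, n = 2) in CX and 1.41 ± 1.83 (SD, n = 3) in BS. Slc6a12 had 1 to 3 reads in each OB and BS sample, so this ratio depends on the added 1 and on depth. For genes with many reads such ratios within a sample hardly depend on the size factor, and 3 of 4 that were compared are given here, with p-values adjusted over 4. The exact permutation test over 92400 assignments (two-sided) gave p = 0.0589 and an adjusted p of 0.065, which was 0.00603 without BS sample 1.

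Gad1 and Gad2, the glutamate decarboxylases GAD67 and GAD65, were both higher in OB, and Gad1 had the largest difference of any member there. Gad1 (GRCm38 chr2:70553072-70602014, plus strand) had values of 473, 361 and 301 in OB. In the other regions it had 36.9, 14.6 and 27.2 in HC, 30.2 and 65.9 in CX and 67.3, 28.0 and 21.0 in BS. The lowest OB sample was thus far above the highest sample of any other region. The OB mean of 378 ± 87.8 (SD, n = 3) was 11.2-fold above the other samples on the fitted scale, at 36.4 ± 19.8 (SD, n = 8), with a log2 fold difference of 3.48 (SE 0.42, 95% confidence interval 2.59 to 4.38, limma adjusted p = 0.0003074). It was higher in OB than in HC by 3.87, CX by 3.03 and BS by 3.40 on the log2 scale, with limma adjusted p-values of 0.0001046, 0.003387 and 0.0001691. Without CX sample 1 the adjusted p against CX was 0.0889. CX, BS and HC did not differ from each other beyond their spread, with adjusted p-values of 0.5651 to 0.7369.

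Gad2 (GRCm38 chr2:22622205-22693874, plus strand) followed Gad1 in OB but was less uniformly low elsewhere. Values were 391, 388 and 302 in OB, 101, 47.5 and 41.5 in HC, 98.0 and 113 in CX and 120, 286 and 126 in BS. Only BS sample 2 came close to the OB samples, and HC sample 1 overlapped CX. OB exceeded the other samples by 1.83 on the log2 scale (SE 0.44, limma adjusted p = 0.02885), and HC differed from the rest by -1.73 (SE 0.48), with a limma p of 0.003111 before and 0.6095 after adjustment. This HC call was lost without HC sample 2 or HC sample 3, with limma p-values of 0.0182 and 0.0222. In pairs, Gad2 was higher in OB than in HC by 2.59 (limma adjusted p = 0.0003236), CX by 1.75 (0.02054) and BS by 1.13 (0.0498), and lower in HC than in BS by a log2 difference of -1.46 (0.03133). The last 3 pairs were not stable to single samples. Their adjusted p reached 0.198 without CX sample 1, 0.175 without BS sample 1 and 0.128 without HC sample 3, in that order. OB against CX exceeded 0.05 without OB sample 1 or 2 or either CX sample, and OB against BS on leaving out any single OB or CX sample, HC sample 2, or BS sample 1 or 3. The latter also exceeded 0.05 with edgeR (0.0741), no filter (0.0689), a pseudocount of 0.25 (0.0554), Y-linked reads as a term (0.0518) and astrocyte marker scaling (0.334, at a log2 difference of 0.70). HC against BS exceeded 0.05 without OB sample 1 or 2, HC sample 2 or 3, or BS sample 2.

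Transcripts of GABA neurons were highest in OB, as were Gad1 and Gad2. Between HC and BS, where Gad2 was higher in BS, they did not follow Gad2. The summed value of 16 GABA neuron markers, a list without Gad1 and Gad2, was 1410 to 1820 in OB, 141 to 249 in HC, 187 to 231 in CX and 83.1 to 176 in BS. Of the 14 markers tested, 9 were called higher in OB. The largest contributors there were the neuropeptide gene Npy at 754 ± 167 (SD, n = 3), the transcription factor gene Sp8 at 264 ± 18.9 (SD, n = 3) and the synaptic vesicle gene Synpr at 222 ± 166 (SD, n = 3). Lhx6 was at 0 throughout OB, Dlx6 throughout HC, Dlx6 and Th throughout CX, and 5 markers throughout BS, among them Dlx1, Dlx2, Dlx6 and Lhx6. Slc32a1, the vesicular GABA transporter, had values of 32.6, 76.6 and 31.2 in OB, 26.2, 7.31 and 7.70 in HC, 5.03 and 10.7 in CX and 3.15, 52.1 and 42.1 in BS, with overlapping regions and an F test adjusted p of 0.283, and its exons overlap a gene on the opposite strand. The neuroblast list of 7 markers summed to 879 to 1312 in OB, 388 to 495 in HC, 472 to 610 in CX and 548 to 812 in BS, with 2 of 6 tested called higher in OB and only Dlx6os1 at 0 throughout a region, BS. The 10 general neuronal markers, none at 0 throughout a region, summed to 1667 to 3129 in OB, 1382 to 2463 in HC, 2431 to 3140 in CX and 3003 to 4033 in BS, where 5 were called higher and 2 lower. The 5 olfactory sensory neuron markers summed to 352 to 763 in OB and 79.3 to 353 elsewhere, with 4 called higher in OB and Omp, S100a5 and Stoml3 at 0 throughout HC and BS and S100a5 throughout CX. What these cells contributed to Gad1 and Gad2 was not tested.

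**Figure D2:**
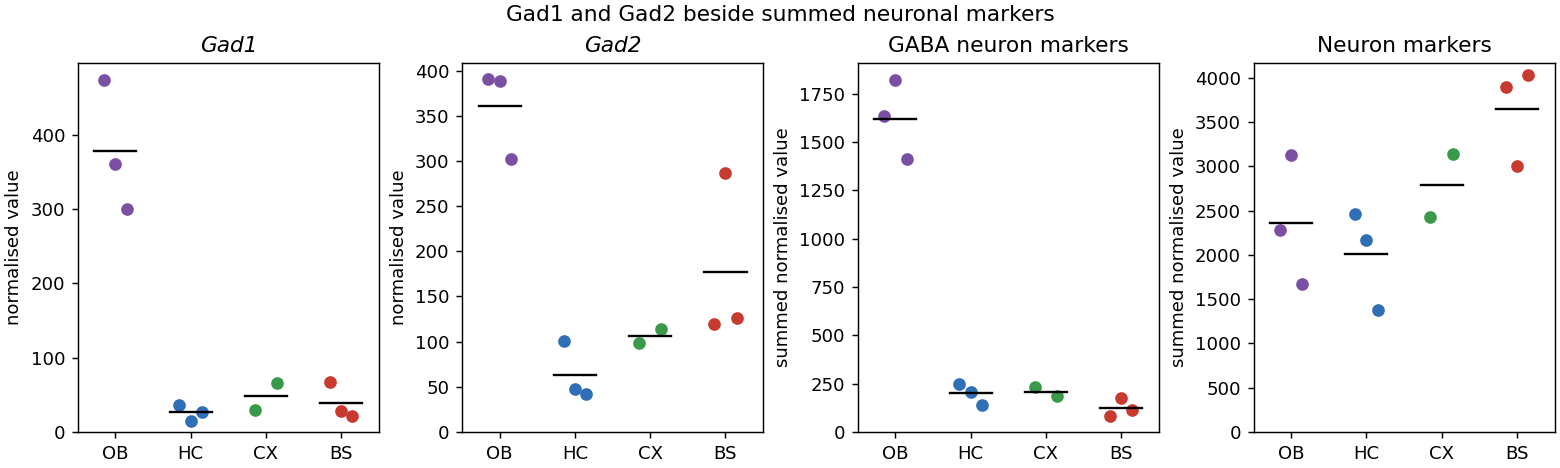
Normalised values of Gad1 and Gad2 and summed normalised values of 16 GABA neuron markers and 10 general neuronal markers (vertical axes, from 0) in each sample by region (horizontal axis), with a line at the region mean. Gad1 and the GABA neuron markers are high in the 3 OB samples alone, whereas the sum of general neuronal markers has its highest median in BS.

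The balance of both decarboxylases within a sample varied too much for a call. The log2 ratio of Gad1 to Gad2 was 0.05 ± 0.20 (SD, n = 3) in OB, -1.22 ± 0.55 (SD, n = 3) in HC, -1.22 ± 0.63 (SD, n = 2) in CX and -2.22 ± 1.27 (SD, n = 3) in BS. Values here are not divided by length, so the ratio compares samples and not the levels of the 2 genes. The 3 OB samples had the highest ratios. The exact permutation p was 0.065 before and after adjustment, and the adjusted p was 0.00603 without BS sample 1, in which the ratio was -0.82 against -3.31 and -2.53 in the other BS samples.

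The mitochondrial enzymes of GABA breakdown were more evenly expressed. Abat (GRCm38 chr16:8513429-8621568, plus strand) had values of 4893, 4412 and 4534 in OB, 3133, 4664 and 5010 in HC, 6554 and 5550 in CX and 4716, 9913 and 5672 in BS. All regions overlapped except CX, whose samples were above all OB and HC samples, and the F test gave an adjusted p of 0.268. No pair of regions passed, the largest difference being -0.62 on the log2 scale for HC minus BS (SE 0.26, limma adjusted p = 0.2417). With samples scaled to their astrocyte markers, an alternative chosen after seeing the data, the F test adjusted p of Abat was 0.0005368.

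Aldh5a1 (GRCm38 chr13:24907579-24937661, minus strand) had values of 1479, 2013 and 1769 in OB, 1214, 1554 and 1950 in HC, 2285 and 2035 in CX and 745, 1811 and 1063 in BS. Both CX samples were above all others, by 0.58 on the log2 scale (SE 0.31), which was not a call at a limma p of 0.0894 before adjustment. The F test adjusted p was 0.145, and it was 0.00664 without BS sample 2, the BS sample with the highest value. Exons of Aldh5a1 overlap those of 4932702P03Rik and 9330162012Rik on the opposite strand, and whether reads were counted by strand is not given in the sources used here.

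Maob (GRCm38 chrX:16709282-16817366, minus strand), which oxidises monoamines and acetylated putrescine, was the member most clearly lower in OB. Its values were 357, 373 and 487 in OB, 976, 1132 and 1003 in HC, 1116 and 1013 in CX and 742, 593 and 703 in BS. The OB samples lay below all others, the BS samples next, and the HC and CX samples together at the top. The OB mean of 406 ± 70.9 (SD, n = 3) against 910 ± 202 (SD, n = 8) elsewhere was 2.21-fold lower, a log2 fold difference of -1.14 (SE 0.21, 95% confidence interval -1.59 to -0.70, limma adjusted p = 0.005381). OB was below HC by a log2 difference of -1.36 (limma adjusted p = 0.0001205), CX by -1.40 (0.0004896) and BS by -0.75 (0.00732). Maob was higher in CX than in BS by 0.65 (SE 0.19, adjusted p = 0.03912). The adjusted p of that pair exceeded 0.05 without OB sample 1 or 2, CX sample 1 or 2, or BS sample 2 or 3, reaching 0.27 without CX sample 1. It was 0.071 with Y-linked reads as a term in the fit. With samples scaled to their astrocyte markers, CX minus BS difference was -0.048, and that of OB minus CX was -1.14 with an adjusted p of 0.0918. HC and CX differed by -0.04 with an SE of 0.19.

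Both GABA-B receptor subunits had their highest mean in CX and their lowest in OB. Gabbr1 (GRCm38 chr17:37045966-37075067, plus strand), the subunit that binds GABA, had values of 4909 and 5348 in CX and 1951, 2807 and 3309 in HC. It had 1091, 4305 and 2050 in BS and 949, 1410 and 1488 in OB. Both CX samples were above all others, and BS sample 1 lay among the OB samples. The CX mean of 5128 ± 311 (SD, n = 2) against 2151 ± 1119 (SD, n = 9) gave a log2 fold difference of 1.42 (SE 0.46, 95% confidence interval 0.42 to 2.42), with a limma p of 0.008935 before and 0.347 after adjustment. The call was just inside the threshold of 0.01 and was lost without OB sample 2 or 3, HC sample 1, CX sample 1 or 2, or BS sample 1 or 3, with p up to 0.0593 without CX sample 2. It was also lost with edgeR (0.0151), TMM scaling (0.0105) and Y-linked reads as a term (0.0223). In OB the difference was -1.19 (SE 0.40) and the limma p of 0.01063 was just outside it. The F test adjusted p of 0.01512 became 0.0596 without OB sample 1, 0.0673 without CX sample 1 and 0.0782 without CX sample 2. The single pair that passed was OB minus CX at -2.02 (SE 0.41, limma adjusted p = 0.008284), which had adjusted p-values of 0.0852 and 0.0864 without CX sample 1 and CX sample 2.

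Gabbr2 (GRCm38 chr4:46662305-46991873, minus strand), the subunit that couples the receptor to G proteins, separated the regions further. Its values were 1538 and 1671 in CX, 309, 1430 and 766 in BS, 481, 355 and 313 in HC and 238, 223 and 221 in OB. The CX samples were above and the OB samples below all others, and BS sample 1 fell just below the HC samples. The CX mean of 1605 ± 94.4 (SD, n = 2) against 482 ± 395 (SD, n = 9) was 4.09-fold higher on the fitted scale, a log2 fold difference of 2.03 (SE 0.56), with a limma p of 0.003094 before and 0.2653 after adjustment. The OB mean of 227 ± 9.32 (SD, n = 3) was lower than that of the other samples, 858 ± 592 (SD, n = 8), by a log2 fold difference of -1.58 (SE 0.52), with a limma p of 0.008917 before and 0.1128 after adjustment. The CX call was lost without CX sample 1 or CX sample 2, with limma p-values of 0.0214 and 0.0281. The OB call was lost on leaving out any single OB or CX sample or BS sample 2 or 3, with p up to 0.0297 without OB sample 2, and also with Y-linked reads as a term (0.0123).

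In pairs, Gabbr2 was lower in OB than in CX by a log2 difference of -2.81 (SE 0.42, limma adjusted p = 0.000908) and than in BS by -1.61 (SE 0.38, adjusted p = 0.008726). It was lower in HC than in CX by -2.09 (SE 0.42, adjusted p = 0.0255), which had an adjusted p of 0.0782, 0.0707, 0.191 and 0.177 without HC sample 2, HC sample 3, CX sample 1 and CX sample 2. It was 0.0516 with no filter and 0.0565 with astrocyte marker scaling, at a log2 difference of -1.78. Regions next to each other in the order of Gabbr2 means did not differ beyond their spread. The limma adjusted p was 0.08397 for CX and BS, 0.251 for BS and HC and 0.3324 for HC and OB. The summed astrocyte markers were 561412 to 636418 in CX, 274406 to 466755 in HC, 234740 to 280692 in OB and 97870 to 287214 in BS, with none of the 10 at 0 throughout a region. CX, highest for both subunits, was thus also highest in these sums. Most of the CX sum was Slc1a2, with a mean of 507178 there. In CX, 4 of the 10 markers lay above all other samples and none below. Gfap had its lowest mean in CX, 1099 against 3506 in OB, 3673 in HC and 1455 in BS. The part of astrocyte marker levels in the result was not tested. With samples scaled to those markers, the CX differences were 1.00 for Gabbr1 and 1.61 for Gabbr2, with limma p-values of 0.0271 and 0.0181 that made neither a call.

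The ratio of Gabbr1 to Gabbr2 values within a sample, which is not divided by length and compares samples only, was 5.52 in OB, 6.96 in HC, 3.19 in CX and 3.05 in BS as geometric means. The highest ratio of any sample was 10.6 in HC and the lowest 2.68 in BS. All OB and HC samples had a higher ratio than all CX and BS samples, but the exact permutation p of 0.0624 (adjusted p = 0.065) did not pass. The adjusted p was 0.0133 without HC sample 1.

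**Figure D3:**
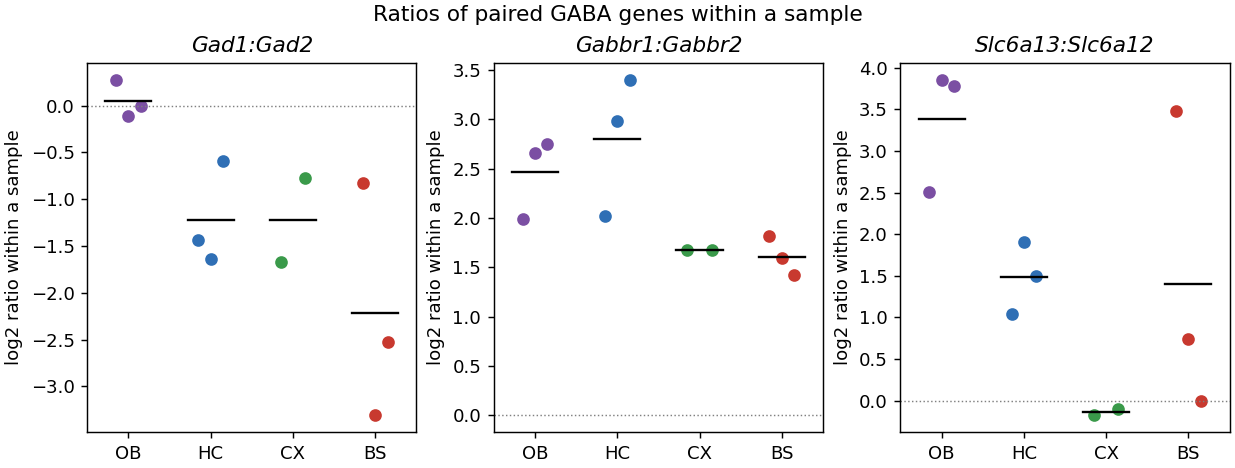
Log2 ratio of 2 GABA genes within each sample (vertical axis) by region (horizontal axis), with points for samples and a line at the region mean. The 3 OB samples have the highest Gad1 to Gad2 ratios, and for Gabbr1 to Gabbr2 all OB and HC samples lie above all CX and BS samples.

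Across the members, OB differed from the other regions most often. In OB, 5 of 9 were called, with Slc6a11, Gad1 and Gad2 higher and Maob and Gabbr2 lower, beside 8.04% of all genes tested (4.15% higher and 3.89% lower). In HC, 2 of 9 were called, Slc6a11 and Gad2, both lower, beside 1.28% of all genes (0.281% higher and 1.0% lower). In CX, 2 of 9 were called, Gabbr1 and Gabbr2, both higher, beside 2.77% of all genes (1.02% higher and 1.74% lower). No member was called in BS by limma, edgeR or DESeq2, beside 9.03% of all genes (3.98% higher and 5.05% lower), and 1 of 9, Aldh5a1, had an unadjusted limma p under 0.05 there, at 0.01995 with a log2 fold difference of -0.64. It became a call without HC sample 1 or without BS sample 2. At an adjusted p under 0.05, 4 members were called in OB (4.58% of all genes), and none in HC (0.0%), CX (0.0144%) or BS (5.42%). The median log2 fold difference over the 9 members was 0.22 in OB, -0.58 in HC, 0.27 in CX and -0.11 in BS, beside medians of all genes between -0.026 and 0.018.

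**Figure D4:**
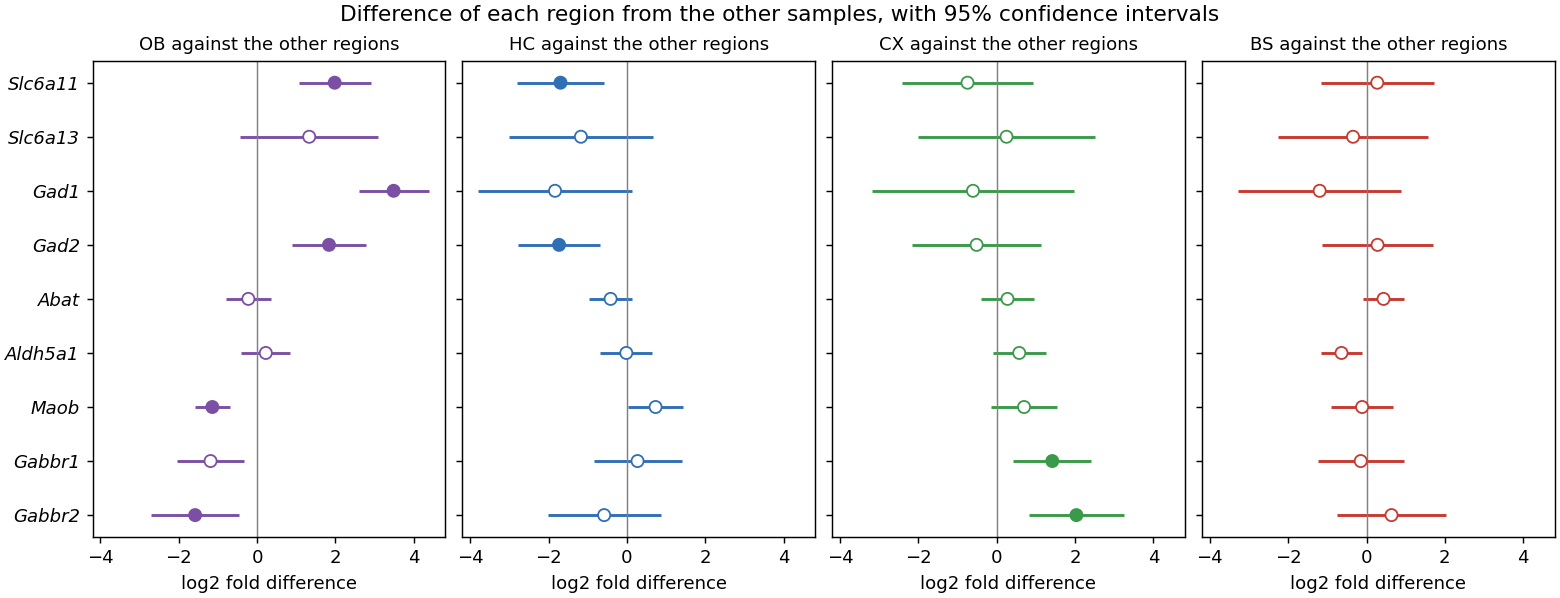
Log2 fold difference of each region from the samples of the other 3 regions (horizontal axis) for the 9 genes (vertical axis), with points for the fitted value, bars for its 95% confidence interval and filled points for calls. Filled points stand at 5 genes in OB, 2 in HC, 2 in CX and none in BS.

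Of the 54 combinations of a member and a pair of regions, 19 passed at an adjusted p under 0.05, beside 7.29% over all genes. OB against CX separated 6 members (4.91% of all genes), OB against BS 5 (15.0%) and OB against HC 4 (7.11%). HC against BS separated Slc6a11 and Gad2 (4.63%), HC against CX only Gabbr2 (1.23%) and CX against BS only Maob (10.9%). These comparisons share samples, and the counts are not independent of each other.

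A wider list of 27 GABA genes was examined beside the members, of which 25 could be tested. The F test was passed by 8 of these, beside 16.5% of all genes tested. Of 4 further transport genes 1 passed, of 6 genes for the putrescine route, GABA from other sources and release 3 passed, of 2 genes for succinate semialdehyde none passed, and of 13 tested partners of the GABA-B receptor 4 passed. Against the other regions, 4 of 25 were called in OB (3 higher, 1 lower, beside 8.04% of all genes) and 4 in BS (3 higher, 1 lower, beside 9.03%). None was called in HC (1.28%) and 1 was lower in CX (2.77%).

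Among receptor partners, Kctd12, an auxiliary subunit that speeds desensitisation of GABA-B responses, was far higher in OB. Its values were 14067, 9004 and 10204 in OB and 373 to 1281 in the other 8 samples, without overlap, a log2 fold difference of 3.82 (SE 0.32, limma adjusted p = 2.437e-05). Kcnj3, a subunit of the inwardly rectifying potassium channels that GABA-B receptors open, was 232, 442 and 225 in OB and 45.2 to 165 elsewhere, a difference of 1.94 (SE 0.35, adjusted p = 0.005381). Both were thus higher in the region where Gabbr2 was lowest. Gnao1, which encodes the G protein subunit Go alpha, was 859, 1368 and 1305 in BS and 5396 to 13062 elsewhere, 6.86-fold lower in BS with a log2 fold difference of -2.78 (SE 0.27, limma adjusted p = 4.257e-05). The fourth partner that passed the F test, named after its values were seen, was Gnai1, an inhibitory G protein subunit, which was higher in BS by 0.75 (SE 0.21, limma adjusted p = 0.0511). This call was lost without BS sample 3, at a limma p of 0.0322. Overlapping opposite-strand genes are annotated for the exons of Kctd12, Kcnj3 and Gnao1.

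In the putrescine route, Aldh1a1, an aldehyde dehydrogenase that can make GABA from an aldehyde precursor, was 3346, 7609 and 3155 in BS and 553 to 1493 elsewhere, without overlap (log2 fold difference 2.44, SE 0.33, limma adjusted p = 0.000685). Odc1, which makes putrescine, was 835, 1090 and 924 in BS, 367 and 435 in CX and 507 to 718 in the other samples. It was higher in BS by 0.79 (SE 0.20, limma adjusted p = 0.03806) and lower in CX by a log2 difference of -0.81 (SE 0.27), the latter with a limma p of 0.009131 before and 0.347 after adjustment. The CX call was lost on leaving out any single OB or CX sample or BS sample 1 or 3, with p up to 0.089 without CX sample 1, and also with Y-linked reads as a term (0.0157). The BS call was lost without BS sample 2, at 0.0135. Aldh9a1, another dehydrogenase of GABA precursors, was 206, 220 and 322 in OB and 269 to 735 elsewhere, with overlap, a log2 fold difference of -0.97 (SE 0.27), with a limma p of 0.003017 before and 0.0598 after adjustment. This call was lost without OB sample 1 or OB sample 2, with limma p-values of 0.0214 and 0.0178. Of the 6 genes of this group, Aldh9a1 was the only 1 called in OB, beside 8.04% of all genes tested. Aldh9a1 and Maob, which act on the same route, were both called lower there. Odc1 averaged 702 in OB, 522 in HC, 401 in CX and 950 in BS.

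For each member that passed the F test, the tested genes with the most similar pattern were sought among 8811 genes with a mean value of at least 50. Likeness was the root mean square difference of centred log2(value + 1) over the 11 samples, so that smaller is closer. Slc6a11 was closest to the NMDA receptor subunit gene Grin3a, at 0.23, and to the kainate receptor auxiliary gene Neto2, at 0.28, where the median gene was at 1.16. Grin3a had region means of 1770 in OB, 350 in HC, 448 in CX and 767 in BS. Gad2 was closest to Csmd2 (0.34) and Sipa1l2 (0.47), with a median gene at 1.14, and Gad1 to the growth factor gene Igf1 (0.66) and Prpsap1 (0.66), with a median gene at 1.70. Maob was closest to the mitochondrial enzyme gene Idh2 (0.19) and A830010M20Rik (0.21), against a median of 0.70. Gabbr1 was closest to Chst1 (0.28) and Fam20a (0.31), against 0.90. Gabbr2 was closest to Gm973 (0.62) and to its partner subunit Gabbr1 (0.63), against 1.17, so that the receptor pair were near neighbours from the side of Gabbr2. The samples of a region share much of this pattern, and nothing was tested.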

How the data were processed

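RNA was isolated from FACS-sorted Aldh1l1-eGFP astrocytes and made into libraries with the Trio RNA-Seq kit. Per the labels and the study's methods, the authors mapped reads with STAR 2.5.0a to mm10, counted them on UCSC transcripts and normalised with DESeq2 1.20.0. The deposited signal is a count divided by a single size factor per sample. All non-zero values were whole multiples (tolerance 0.001) of the value of 1 read, so reads were recovered: 2830746 to 14151670 per sample, with 3 reads as the floor. Such floors cover counting error only.

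Values were fitted as log2(value + 1) with limma 3.58.1 (trend, two-sided) in R 4.3.3, after filterByExpr of edgeR 4.0.16 on recovered reads, over all 13875 genes tested. Adjusted p-values follow Benjamini and Hochberg over all genes. The fold scale understates changes of low genes. Ratios were compared by an exact permutation test with a smallest possible p of 6.494e-05. Alternatives were edgeR, DESeq2 1.42.0, no filter, pseudocount 0.25, TMM, a replicate block, Y-linked reads as a term, region means, adjusted p and leaving out each sample. Scripts were tested on simulated data. Python 3.11.15 was used for tables and plots. Exon lengths and coordinates came from GENCODE, promoters from RefSeq.

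The members and lists were chosen with earlier results of these data known. Named are all members, up to 3 genes per group of other GABA genes that passed the F test, by span of region means, with Slc32a1 always, and the 2 genes most like each member that passed. Another gene that the rule named and a ratio with it are not reported here. Counts had been planned for the test, and limma was used because the deposited values are normalised. No replicate pair agreed within sampling noise.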

Additional observations from a re-analysis of the deposited data

How the results depend on the processing

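The 5 calls in OB, the 6 members that passed the F test, the 19 pairs and the 8 other GABA genes stayed within 1.5 times those counts in every alternative run, with ranges of 4 to 6, 5 to 7, 13 to 23 and 6 to 10 when single samples were left out. The 2 HC calls ranged from 0 to 2 when samples were left out (0 without HC sample 2 or HC sample 3), became 4 with a mean for each region and 0 at an adjusted p under 0.05. The 2 CX calls ranged from 0 to 2 (0 without CX sample 1 or CX sample 2). They became 1 with edgeR, 1 with TMM scaling, 1 with Y-linked reads as a term, 0 with astrocyte marker scaling and 0 at an adjusted p under 0.05. The count of 0 in BS became 1 with a mean for each region (Aldh5a1) and 1 with astrocyte marker scaling (Abat), and ranged from 0 to 1. Of the 4 ratios, 1 to 3 passed when samples were left out, 2 without HC sample 1 and 3 without BS sample 1. Those 3 include Slc6a13 to Slc6a12, which rests on few Slc6a12 reads. Astrocyte marker scaling, chosen after seeing the data, moved the median gene by 0.48 in BS, -0.42 in CX and -0.11 in OB, and turned Maob in CX minus BS to -0.048. The cause of these changes was not tested.

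Same-numbered samples of different regions correlated in their deviations from region means at -0.16 to 0.26, with a median of 0.025. Differently numbered ones correlated at -0.23 to 0.18, with a median of -0.0064. The ranges overlap and the labels name no animals, so whether replicate numbers pair the samples cannot be decided. With the replicate number as a block, calls were 5 in OB, 2 in HC, 2 in CX and 0 in BS, with 6 members in the F test, 22 pairs and 8 other GABA genes, but not all for the same genes. In OB, Gabbr2 (limma p of 0.0151) was no longer called and Gabbr1 was. Odc1 in CX (0.0196) was no longer called either. Of single values, 379 kept their side of the threshold in alternatives other than leaving out a sample, 27 lost it, 1 gained it and 1 reversed. Depth limits Slc6a13, with 2 to 65 reads.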

Other observations

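Maob lies on the X chromosome, and Y-linked reads were found in 3 of the 11 samples. In the OB, Maob had a value of 357 in the sample with Y-linked reads and 373 to 487 in those without. In the HC it was 976 against 1003 to 1132, and in the BS 703 against 593 to 742. No CX sample had Y-linked reads, and Maob was 1013 to 1116 there. With Y-linked reads as a term in the fit, Maob in CX minus BS was 0.62 on the log2 scale with a limma adjusted p of 0.071, which no longer passed.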
